A study of Mus musculus with 12 samples.

Results

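DNA replication and S phase genes were followed here as a set of 44 genes, taken by name from the 54100 genes of a mouse RNA-seq count table. The cells were fibro-adipogenic progenitors (FAPs), mesenchymal cells of skeletal muscle that were sorted as Pdgfra-positive from the plantaris. There were 4 groups of 3 libraries, in which control or cdKO cells came from sham or overloaded muscle. Control mice carried the Pdgfra-CreERT2 driver alone, which makes an inducible Cre recombinase in Pdgfra-expressing cells. Conditional double knockout (cdKO) mice carried the same driver with floxed alleles of Yap1 (Yap1 flox/flox) and Taz (Taz flox/flox, gene symbol Wwtr1), whose products are co-activators of the Hippo pathway. Every group therefore shared the driver. Overloaded muscles had been operated to carry extra load, and sham muscles had a control operation. Each tube held 1000 sorted cells. The sources used here do not give age, how the Cre was induced, the interval after surgery or any pooling of animals.

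A dividing cell copies its genome in S phase. Beforehand, in G1, a ring of MCM proteins is loaded at origins, and the ring becomes an active helicase when Cdc45 and the GINS complex join it. Polymerases then copy both strands behind the helicase, with a sliding clamp, single-strand binding proteins, a ligase for the lagging strand and a supply of deoxynucleotides. Many of these genes are classical targets of E2F transcription factors, which the retinoblastoma family restrains in resting cells. FAPs of uninjured muscle are known to be largely quiescent and to enter the cell cycle when muscle is injured or loaded.

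Because many of these genes are textbook E2F targets and 19 of the 44 rose after overload in control cells, their promoters are shown before the values. RefSeq windows (build GRCm38.p6, from 250 bases before to 50 after the start) were matched by symbol for 37 of the 44 genes. The words searched on both strands were TTTCCCGC, TTTCGCGC, TTTGCCGC, TTTGGCGC and GGCGGGAA, called E2F words below. GGCGGGAA and the reverse of TTTCCCGC overlap, so that a single stretch can match both. In Mcm5 and Mcm6 below, 2 matches also overlap in a single stretch, so matches are not all separate sites. At least 1 E2F word was present in 17 of the 37 genes (45.9%), tested or not. The share was 8.16% of the 6260 tested genes with a window and 4.46% of 27025 genes in all. Of 45 other replication genes, 37 had a window and 14 of these (37.8%) held an E2F word. The windows of Mcm3, Mcm5 and Mcm6 are printed as examples, with 2 or 3 matches each in genes that rose. A window of Mcm7 and a window of Dnmt1, genes that also rose, held 2 matches each and are not printed. A window of Lig1, which has 3, is added because that gene had the second smallest p of the set after overload in control cells. Capitals mark the E2F words in these 4 windows, read 5′ to 3′ on the gene's strand.
Mcm3, chr1:20820263-20820562, minus strand: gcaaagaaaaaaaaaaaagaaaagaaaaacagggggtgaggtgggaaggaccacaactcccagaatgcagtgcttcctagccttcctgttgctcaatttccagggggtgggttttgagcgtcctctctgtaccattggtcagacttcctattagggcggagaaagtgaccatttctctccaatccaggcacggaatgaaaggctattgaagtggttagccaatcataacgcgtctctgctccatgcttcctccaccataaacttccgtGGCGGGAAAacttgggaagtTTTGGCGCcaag
Mcm5, chr8:75109259-75109558, plus strand: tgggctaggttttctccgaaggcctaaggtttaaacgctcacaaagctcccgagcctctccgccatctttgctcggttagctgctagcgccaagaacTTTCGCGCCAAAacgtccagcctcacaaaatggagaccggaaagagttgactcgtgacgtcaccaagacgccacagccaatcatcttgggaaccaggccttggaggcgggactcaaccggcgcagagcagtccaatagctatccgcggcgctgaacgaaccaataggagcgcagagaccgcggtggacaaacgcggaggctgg
Mcm6, chr1:128359656-128359955, minus strand: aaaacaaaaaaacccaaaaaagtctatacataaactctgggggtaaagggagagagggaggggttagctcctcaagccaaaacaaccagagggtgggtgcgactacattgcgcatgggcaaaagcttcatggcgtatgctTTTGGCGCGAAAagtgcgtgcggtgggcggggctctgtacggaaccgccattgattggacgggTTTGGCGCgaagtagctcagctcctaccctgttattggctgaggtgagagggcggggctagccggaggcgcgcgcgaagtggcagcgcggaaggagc
Lig1, chr7:13278576-13278875, plus strand: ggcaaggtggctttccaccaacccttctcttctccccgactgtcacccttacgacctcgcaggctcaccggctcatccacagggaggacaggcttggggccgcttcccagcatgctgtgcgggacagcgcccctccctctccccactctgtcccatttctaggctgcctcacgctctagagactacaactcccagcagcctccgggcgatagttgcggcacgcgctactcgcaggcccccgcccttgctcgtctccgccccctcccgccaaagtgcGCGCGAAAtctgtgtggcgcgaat

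A second kind of word, TTTGAA or TTCGAA (CHR words), is known from genes of G2 and mitosis. The window of Asf1b, which had the smallest p of the set after overload in control cells, held no E2F word and 1 CHR word, in capitals here.
Asf1b, chr8:83955444-83955743, plus strand: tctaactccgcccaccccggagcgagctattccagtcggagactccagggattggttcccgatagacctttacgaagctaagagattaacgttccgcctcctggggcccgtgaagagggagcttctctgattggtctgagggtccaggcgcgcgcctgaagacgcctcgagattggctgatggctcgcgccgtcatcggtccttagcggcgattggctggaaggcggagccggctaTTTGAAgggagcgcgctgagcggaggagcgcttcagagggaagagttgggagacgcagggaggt

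CHR words were present in 7 of the 37 replication genes with a window (18.9%), against 15.8% of tested genes. In 37 listed genes of G2 and M phase, 32 with a window, the picture was turned round: 25 (78.1%) held a CHR word and 2 (6.25%) an E2F word. CCAAT, the box bound by NF-Y, was present in 22 of the 37 replication genes (59.5%), in 78.1% of the G2 and M phase genes and in 42.2% of tested genes. Among the replication genes that rose after overload in control cells, 8 of 16 with a window held an E2F word, and among the others 9 of 21 did. Rrm2 and Dut rose in control cells and held none. A match describes the letters in a window and does not show a site in use.

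**Figure D1:**
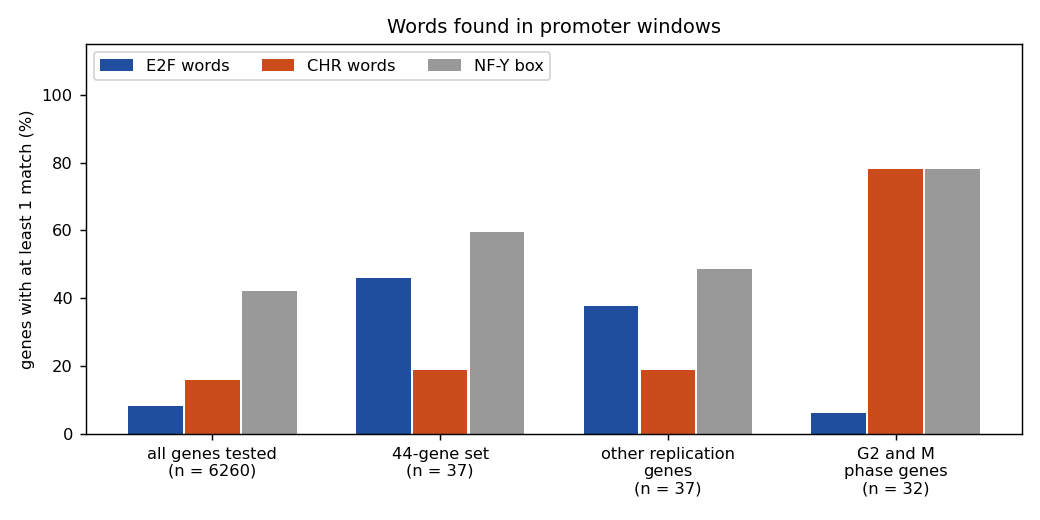
Share of genes (%, vertical axis) whose RefSeq promoter window holds at least 1 E2F word, CHR word or NF-Y box, for all tested genes, the 44-gene set, other replication genes and G2 and M phase genes; n is the number of genes with a window. E2F words are at 45.9% in the 44-gene set and 6.25% in the G2 and M phase genes, and CHR words are at 18.9% and 78.1%.

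The libraries held 336437 to 1564581 counts, so a floor of 3 counts stood for 1.95 to 9.72 CPM (counts per 1000000 counts of tested genes, after scaling). Wwtr1 was at 108 to 174 CPM in the 6 control libraries and at 18.2 to 40.6 CPM in the 6 cdKO libraries. Yap1 was at 91.6 to 108 CPM in control sham against 56.2 to 71.5 CPM in cdKO sham, but in overloaded muscle control replicate 3 (39.7 CPM) lay within the cdKO range of 22.1 to 40.2 CPM. The floxed exons are not named in the labels, so counts outside them would not show the loss. The 6 FAP markers were present in all 12 libraries, with a summed level of 15889 CPM or more. This sum was at 29178 to 39663 CPM in control sham and 15889 to 19947 CPM in control overload, and at 24442 to 36156 CPM and 20782 to 26572 CPM in cdKO. In control Dcn and Cd34 fell and Col1a1 rose with overload, and in cdKO Dcn, Pdgfra and Pdgfrb fell and Col1a1 rose (edgeR, adjusted p under 0.05). Each of the 27 members with enough counts was tested with edgeR, over 8161 genes, and the other 17 are given by their counts. No label ties a library to an animal of its own, so the p-values speak of the spread among these 12 libraries, part of which may be technical.

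In control cells, much of the replication machinery was higher after overload. Of the 27 tested members 19 rose and 0 fell (edgeR, adjusted p under 0.05), where 10.6% of all tested genes rose and 11% fell. A member could pass the filter on low counts through its overloaded libraries alone, as Uhrf1 did with 0 counts in control sham. The count of 19 is therefore in part set by the filter, and with no filter 18 of the 19 passed. The median log2 fold change of the tested members was 1.59, against -0.05 over all tested genes. All 6 MCM subunits and all 4 tested genes of deoxynucleotide supply rose, as did the ligase Lig1 and the histone chaperone Asf1b. In DESeq2 16 of the 19 passed, without Mcm6, Mcm7 and Rfc2. The 8 that did not pass were the primase-polymerase genes Pola1 and Prim1, the clamp Pcna, the single-strand binding subunits Rpa1 and Rpa3, the chromatin remodeller Hells, the histone mRNA binding protein Slbp and cyclin E1 (Ccne1). In cdKO cells 5 of the 27 rose and 0 fell, where 6.37% of all tested genes rose and 6.68% fell. These were Mcm2, Mcm3, Mcm4, Rrm2 and Asf1b, and the median was 0.80 against -0.02 over all tested genes. All 5 were also among the 19 in control cells. The difference between the responses, tested as the interaction of genotype and load, passed for 0 members and 0% of all tested genes. Of the members 4 had an unadjusted interaction p under 0.05, all in the direction of a smaller response in cdKO, against 2.63% of all tested genes in that direction and 2.6% in the other. DESeq2 and limma voom also called 0 members in the interaction, with 1 and 0 of all genes.

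**Figure D2:**
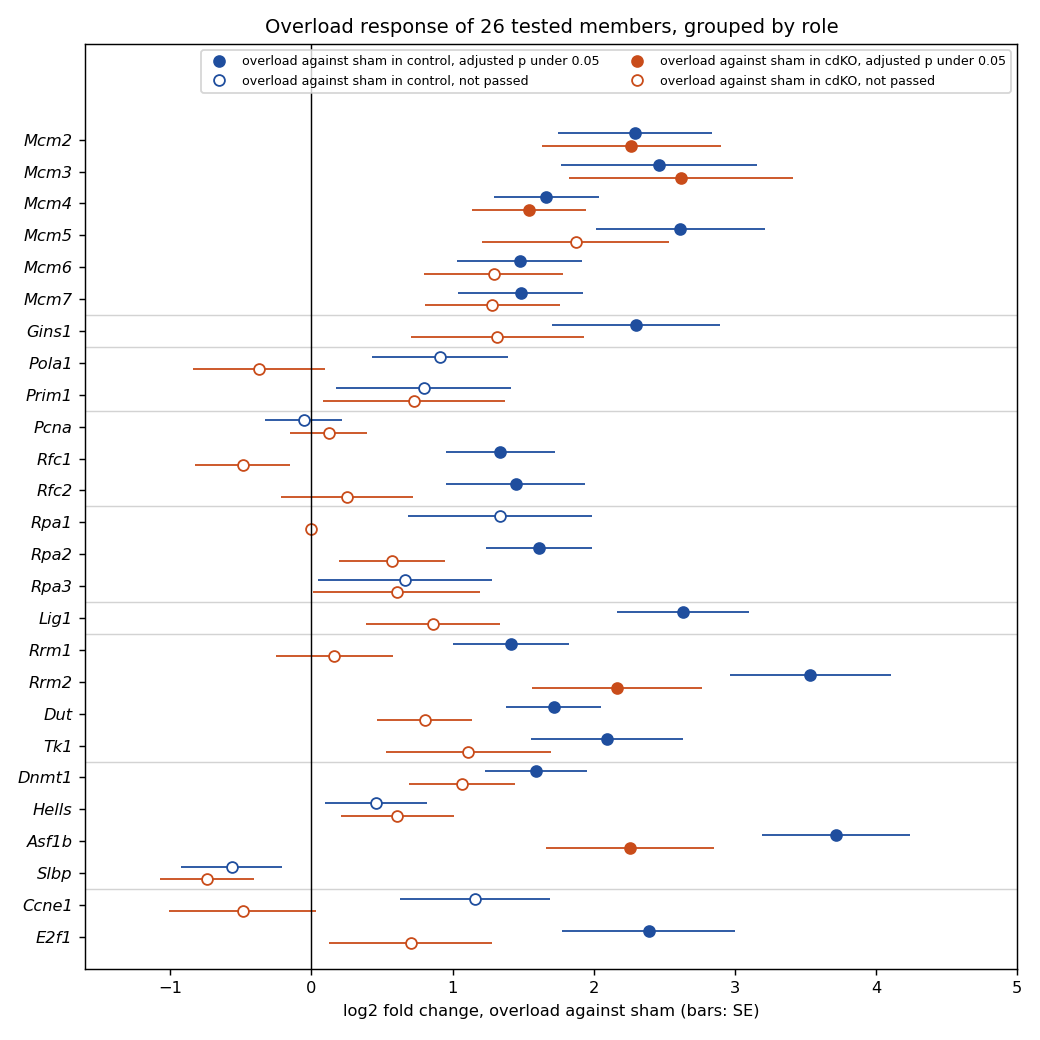
Log2 fold change of overload against sham (horizontal axis, with SE) for 26 tested members in control and in cdKO cells; lines separate the roles, filled points passed at adjusted p under 0.05, and Uhrf1 is left out because control sham had no counts. No SE is drawn where the estimate is too close to 0 to give one; the SE bars of both genotypes overlap for all 6 MCM genes and do not for Lig1, Rfc1 and Rrm1.

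The size of the whole set in each library gives the same picture with its spread. As a sum over the 44 genes, control sham libraries held 471, 484 and 509 CPM and cdKO sham libraries 491, 430 and 485 CPM. After overload the control libraries held 837, 1619 and 1469 CPM, and the cdKO libraries 794, 577 and 751 CPM. Both overloaded groups lay wholly above both sham groups, and control overload replicate 1 lay close to the cdKO libraries and far from its own 2 companions. The mean of log2(CPM + 1) over the 44 genes went from 2.83 ± 0.08 in sham to 4.15 ± 0.50 in overloaded control cells, and from 2.77 ± 0.12 to 3.47 ± 0.21 in cdKO cells (SD, n = 3 each). On this scale control overload replicate 1 (3.57) lay inside the range of the cdKO overload libraries, 3.24 to 3.66. No test was made of this mean, since its genes were chosen with results known. In bulk samples of this kind, fewer cycling cells and less RNA per cycling cell cannot be told apart.

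Other values also differed among these libraries, not always in step with the set. The control overload libraries with the most replication transcripts, replicates 2 and 3, had the lowest summed Y-linked levels of all, 72.7 and 88.7 CPM, against 131 to 337 CPM in the other 10. In cdKO overload the order was the reverse: Y-linked levels were 337, 204 and 310 CPM, lowest in replicate 2, which was also lowest for the set. Control overload replicates 2 and 3 also had the lowest sums over 6 endothelial markers, 15.6 and 22.2 CPM, against 91.3 CPM in control overload replicate 1 and 25.8 to 52.0 CPM in cdKO overload. Within each genotype these sums were higher in sham muscle, at 99.8 to 164 CPM in control and 67.8 to 164 CPM in cdKO. Of the 5 endothelial markers tested 1 fell with overload in control (Tek) and 2 in cdKO (Tek and Tie1). The sums over 4 erythroid markers were 250, 10.4 and 46.7 CPM in control overload and 2.73 to 6.76 CPM in control sham. In cdKO they were 5.50, 94.7 and 116 CPM in sham and 0 to 1.54 CPM in overload. All 3 erythroid markers tested, which are globin genes, had an unadjusted interaction p under 0.05, and 0 passed. The sums over 8 myeloid markers were 9.74 and 18.7 CPM in these libraries, 58.6 CPM in control overload replicate 1 and 8.98 to 54.6 CPM in cdKO overload, against 43.7 to 60.8 CPM in control sham and at most 47.7 CPM in cdKO sham. Lyz2 and C1qa had 0 counts in all 3 control overload libraries, so the 58.6 CPM in replicate 1 came from other markers of that list. Only 1 of the 8 myeloid markers was tested, and it passed in neither genotype. Sums over 7 muscle stem cell and myoblast markers were 32.4 to 64.2 CPM over all libraries, with 56.9, 33.1 and 64.2 CPM in control overload. Of the 2 tested, 1 rose and 1 fell with overload in control, and neither passed in cdKO. Sums over 6 myofibre markers were 74.1, 11.7 and 31.5 CPM in control overload and 33.7 to 71.1 CPM in cdKO overload. Of these differences only the Y-linked sums were put into a fit, given next. The part of the others, and of the lower FAP marker sums in control overload, in the result was not tested. With summed Y-linked CPM as a covariate, 8 of the 19 members still passed in control cells (Mcm2, Mcm4, Rrm1, Rrm2, Dut, Uhrf1, Dnmt1 and Asf1b). In cdKO all 5 passed with this covariate, as did Mcm5 and Mcm6, so that the counts of members that rose were 8 in control and 7 in cdKO. Calls over all genes fell with it in both genotypes, as given below. Since control overload replicates 2 and 3 had the lowest Y-linked sums, the covariate overlaps with the control response. These counts therefore cannot show whether the genotypes respond alike. With control overload replicates 2 and 3 left out, which leaves replicate 1 alone in that group, the median over tested members was 0.98.

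**Figure D3:**
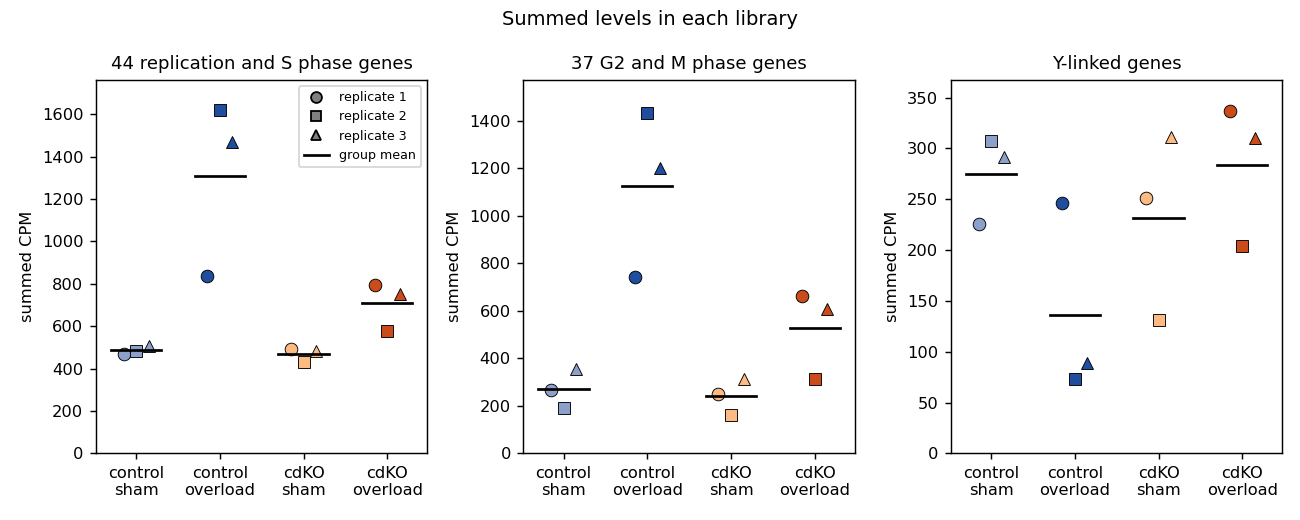
Summed CPM (vertical axes) of the 44 replication and S phase genes, of 37 G2 and M phase genes and of Y-linked genes in each of the 12 libraries; symbols mark the replicate and the line is the group mean. In control overload, replicates 2 and 3 (1619 and 1469 CPM) are the highest for the set and the lowest for Y-linked genes, and replicate 1 is at 837 CPM.

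The MCM genes, which encode the 6 subunits of the helicase ring, gave similar estimates in both genotypes. Mcm2 had 4.50, 8.20 and 6.48 CPM in control sham against 22.4, 42.2 and 32.7 CPM in control overload. Its cdKO libraries had 3.67, 2.08 and 3.87 CPM in sham and 10.8, 6.50 and 26.9 CPM in overload. In both genotypes the overloaded libraries lay above every sham library of that genotype, and the log2 fold changes were 2.29 ± 0.54 in control (SE, edgeR adjusted p = 0.00349) and 2.27 ± 0.63 in cdKO (adjusted p = 0.0191). Mcm4 rose from 22.5, 15.0 and 22.7 to 41.4, 81.8 and 57.2 CPM in control, and from 18.3, 7.29 and 11.6 to 43.3, 27.3 and 33.7 CPM in cdKO. Again neither genotype's groups overlapped. The changes were 1.66 ± 0.37 (adjusted p = 0.00225) and 1.54 ± 0.40 (adjusted p = 0.0129). Mcm3 was less even. It had 9.01, 1.37 and 9.72 CPM in control sham and 8.61, 33.8 and 51.4 CPM in control overload, where replicate 1 lay among the sham values. In cdKO it went from 5.50, 2.08 and 0 to 21.6, 9.10 and 18.0 CPM with no overlap, and the changes were 2.46 ± 0.69 (adjusted p = 0.0128) and 2.62 ± 0.79 (adjusted p = 0.0312).

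Mcm5, Mcm6 and Mcm7 passed in control cells and not in cdKO. Mcm5 had 2.25, 6.84 and 6.48 CPM in control sham and 8.61, 45.4 and 42.0 CPM in control overload, so replicate 1 was only just above sham. In cdKO it went from 3.67, 3.12 and 3.87 to 18.5, 10.4 and 11.2 CPM, without overlap. Its log2 fold change was 2.61 ± 0.60 in control (adjusted p = 0.00255) and 1.87 ± 0.66 in cdKO (adjusted p = 0.0625). The values for Mcm6 were 1.47 ± 0.44 (adjusted p = 0.0182) and 1.29 ± 0.49 (adjusted p = 0.0822), and those for Mcm7 1.48 ± 0.44 (adjusted p = 0.0173) and 1.28 ± 0.48 (adjusted p = 0.0763). Over the 6 subunits the median response was 1.98 in control and 1.71 in cdKO, and the interaction estimates ran from -0.74 to 0.16, none with an unadjusted p under 0.05. All 6 were estimated lower in cdKO than in control also in sham muscle, by log2 values of -0.59 to -1.15, and 0 of these passed either. The end of Mcm7 overlaps Cops6 on the opposite strand, and since no strand setting is known, reads of the 2 genes cannot be told apart there.

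The loaders and their inhibitor were near the detection limit. Cdt1, which brings the MCM ring to origins, had 8 counts over the control sham libraries and 45 over control overload, a scaled ratio of 2.80 (95% interval 1.31 to 6.89, counting error only). In cdKO it had 4 and 21 counts, a ratio of 4.60 (1.55 to 18.4). Geminin (Gmnn), which blocks Cdt1 once S phase has begun, had 3 and 39 counts in control, a ratio of 6.48 (2.06 to 32.8), and 6 and 10 in cdKO, a ratio of 1.46 (0.481 to 4.89). Cdc6, a partner of Cdt1 in loading, had 12 and 35 counts in control, a ratio of 1.45 (0.737 to 3.08), and 16 and 13 in cdKO. Intervals for Cdt1 leave out 1 in both genotypes and for Gmnn only in control, but none of these ratios is a test across libraries.

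Of the 4 members that turn the loaded ring into a working helicase, only Gins1, a GINS subunit, had enough counts to be tested. It had 2.25, 6.84 and 6.48 CPM in control sham and 12.1, 36.3 and 29.2 CPM in control overload. In cdKO it went from 1.83, 5.21 and 7.73 to 13.9, 9.10 and 14.6 CPM. All overloaded libraries lay above the sham libraries of their genotype, with changes of 2.30 ± 0.60 in control (adjusted p = 0.00674) and 1.32 ± 0.61 in cdKO (adjusted p = 0.16). Gins2 had 1 and 22 counts in control, a ratio of 11.0 (1.77 to 453). Its cdKO counts were 4 and 7, and it shares 67.3% of its exonic bases with Gse1 on the opposite strand. Cdc45, the helicase cofactor, had 8 and 40 counts in control, a ratio of 2.49 (1.15 to 6.16), and 9 and 15 in cdKO. Mcm10, which helps to start the helicase, had 10 and 17 counts in control and 7 and 15 in cdKO, with both intervals spanning 1.

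Of the 5 polymerase and primase genes in the set only Pola1 and Prim1 had enough counts to be tested, and neither passed. Pola1, the catalytic subunit of polymerase alpha, had 13.5, 12.3 and 6.48 CPM in control sham and 22.4, 24.7 and 16.3 CPM in control overload. These groups did not overlap, but the change of 0.91 ± 0.48 did not pass (adjusted p = 0.182). In cdKO its value was -0.37 ± 0.47. Prim1, the primase, was at 0.80 ± 0.62 and 0.73 ± 0.64 and did not pass in either. Pole, the catalytic subunit of the leading-strand polymerase, had 20 counts in control sham and 20 in the deeper control overload libraries, a scaled ratio of 0.498 (0.255 to 0.976), and every control overload library lay below every control sham library. Its cdKO ratio was 0.877 (0.43 to 1.79). Pola2 had 9 and 15 counts in control and 3 and 8 in cdKO, and Pold1, of polymerase delta, never had more than 4 counts in a group.

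At the clamp, Pcna passed in neither genotype. This sliding ring, used widely as a marker of proliferation, had 56.3, 71.1 and 42.1 CPM in control sham and 44.8, 68.8 and 51.4 CPM in control overload. In cdKO it had 53.2, 53.1 and 52.2 CPM in sham and 57.2, 54.6 and 60.6 CPM in overload. The control groups overlapped, the cdKO overload libraries lay just above cdKO sham, and the changes were -0.05 ± 0.27 (adjusted p = 0.908) and 0.12 ± 0.27 (adjusted p = 0.832). The annotation holds 2 pseudogenes named for Pcna, and whether they affected its counts was not tested. Its loader behaved otherwise. Rfc1, the large subunit of the clamp loader, had 11.3, 17.8 and 9.72 CPM in control sham and 41.4, 28.6 and 37.4 CPM in control overload, without overlap. In cdKO it was already at 33.0, 42.7 and 25.1 CPM in sham, above all control sham libraries, and had 26.3, 27.3 and 20.2 CPM in overload. The responses were 1.34 ± 0.39 in control (adjusted p = 0.014) and -0.49 ± 0.34 in cdKO (adjusted p = 0.379). Its interaction estimate, -1.83 ± 0.52, had the smallest p of the set (unadjusted p = 0.00155, adjusted p = 0.582) and did not pass.

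The smaller loader subunits were measured less well. Rfc2 rose in control from 8.32 ± 5.14 to 23.2 ± 8.19 CPM (SD, n = 3 each), a change of 1.45 ± 0.49 (adjusted p = 0.0357), and was at 0.25 ± 0.47 in cdKO. Rfc5 had 1 and 37 counts in control, a ratio of 18.4 (3.11 to 748), all of the 37 from replicates 2 and 3, and 10 and 8 counts in cdKO. Rfc3 had 5 and 20 counts in control and 13 and 15 in cdKO, and Rfc4 at most 4 in any group. The ends of Rfc4 and Rfc5 overlap Eif4a2 and Wsb2.

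Replication protein A coats single-stranded DNA as 3 subunits, which differed here. Rpa2 had 13.5, 12.3 and 19.4 CPM in control sham and 29.3, 51.3 and 50.2 CPM in control overload. Its cdKO libraries had 14.7, 14.6 and 15.5 CPM in sham and 21.6, 24.7 and 20.2 CPM in overload. No group overlapped its own sham or the other genotype after overload, and the changes were 1.61 ± 0.37 (adjusted p = 0.00287) and 0.57 ± 0.38 (adjusted p = 0.35). Rpa1 was at 1.34 ± 0.65 in control (adjusted p = 0.144), and Rpa3 at 0.66 ± 0.62 (adjusted p = 0.47).

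Lig1 encodes the ligase that joins lagging-strand fragments. It had 6.76, 10.9 and 6.48 CPM in control sham and 20.7, 64.9 and 72.4 CPM in control overload. In cdKO it had 9.17, 12.5 and 7.73 CPM in sham and 17.0, 20.8 and 18.0 CPM in overload. Overload lay above sham without overlap in both genotypes, but control overload replicate 1 stood among the cdKO overload values. The change was 2.63 ± 0.47 in control (adjusted p = 0.000253) and 0.86 ± 0.47 in cdKO (adjusted p = 0.251), with an interaction of -1.77 ± 0.69 (unadjusted p = 0.0167, adjusted p = 0.885). Fen1, the flap nuclease that trims the same fragments, had 0 counts in all 12 libraries, although it acts in every replicating cell. Of its exonic bases 84.2% are shared with genes on the opposite strand, Tmem258 and Gm10143, and whether this removed its reads from the count was not tested.

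**Figure D4:**
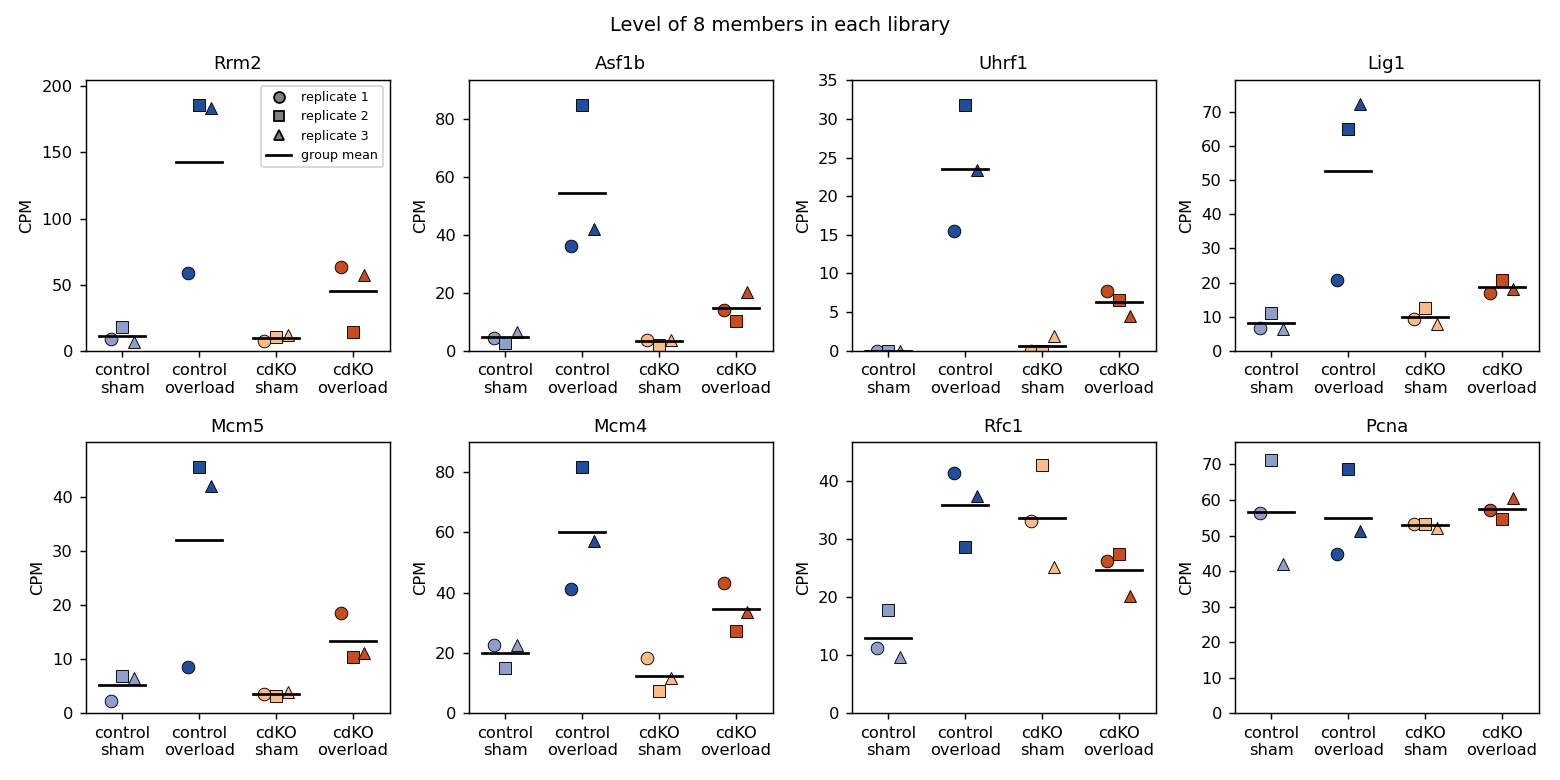
CPM (vertical axes, each from 0) of Rrm2, Asf1b, Uhrf1, Lig1, Mcm5, Mcm4, Rfc1 and Pcna in each library; symbols mark the replicate and lines the group mean. Rrm2, Lig1 and Mcm5 show control overload replicate 1 (58.6, 20.7 and 8.61 CPM) apart from replicates 2 and 3, and Pcna shows overlapping control groups.

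All 4 tested genes of deoxynucleotide supply rose in control cells. Rrm2, the regulated subunit of ribonucleotide reductase, had 9.01, 17.8 and 6.48 CPM in control sham and 58.6, 186 and 183 CPM in control overload. In cdKO it went from 7.33, 10.4 and 11.6 to 63.3, 14.3 and 57.3 CPM, where overload replicate 2 was just above sham. The changes were 3.54 ± 0.57 (adjusted p = 0.00039) and 2.17 ± 0.60 (adjusted p = 0.0266). Its partner Rrm1 had 18.0, 20.5 and 22.7 CPM in control sham and 48.2, 53.2 and 60.7 CPM in control overload, close together within each group. In cdKO Rrm1 had 23.8, 10.4 and 38.7 CPM in sham and 38.6, 14.3 and 24.7 CPM in overload, fully overlapping, and the changes were 1.41 ± 0.41 (adjusted p = 0.0143) and 0.16 ± 0.41 (adjusted p = 0.856). Its interaction of -1.25 ± 0.59 did not pass (unadjusted p = 0.043, adjusted p = 0.931).

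Dut, which removes dUTP from the nucleotide pool, had 27.0, 75.2 and 38.9 CPM in control sham and 103, 204 and 177 CPM in control overload. Its cdKO libraries had 62.3, 41.6 and 48.3 CPM in sham and 74.2, 68.9 and 118 CPM in overload. Neither pair overlapped, and the changes were 1.72 ± 0.33 (adjusted p = 0.000737) and 0.80 ± 0.33 (adjusted p = 0.115). Thymidine kinase Tk1 had 4.50, 6.84 and 9.72 CPM in control sham and 17.2, 41.5 and 26.9 CPM in control overload. In cdKO Tk1 went from 3.67, 3.12 and 9.66 to 10.8, 10.4 and 12.3 CPM, where the groups just cleared each other. The changes were 2.09 ± 0.54 (adjusted p = 0.00621) and 1.11 ± 0.58 (adjusted p = 0.224). Tyms, thymidylate synthase, was under the filter, with 8 and 62 counts in control, a ratio of 3.86 (1.84 to 9.34), and 12 and 23 in cdKO, a ratio of 1.68 (0.803 to 3.71). A pseudogene named Tyms-ps is annotated, and whether it affected the Tyms counts was not tested.

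Among genes that rebuild chromatin behind the fork was the member with the smallest p. Asf1b, a chaperone that hands new histones H3 and H4 to assembly factors, had 4.50, 2.73 and 6.48 CPM in control sham and 36.2, 85.0 and 42.0 CPM in control overload. In cdKO it went from 3.67, 2.08 and 3.87 to 13.9, 10.4 and 20.2 CPM, so all overloaded libraries were above sham and all control overload libraries above cdKO overload. The changes were 3.72 ± 0.53 (adjusted p = 1.93e-05) and 2.26 ± 0.60 (adjusted p = 0.0133). Uhrf1, which reads half-methylated DNA and recruits the maintenance methyltransferase, had 0 counts in all 3 control sham libraries, whereas control overload had 15.5, 31.8 and 23.3 CPM. Against a floor of 3 counts per library it was at least 3.43-fold higher (adjusted p = 0.000574). In cdKO Uhrf1 had 1 count in sham and 14 in overload (7.72, 6.50 and 4.49 CPM), a ratio of 12.3 (1.87 to 519), and did not pass (adjusted p = 0.0654). The methyltransferase itself, Dnmt1, had 13.5, 19.1 and 16.2 CPM in control sham and 41.4, 52.6 and 56.0 CPM in control overload. Its cdKO values were 14.7, 14.6 and 9.66 CPM in sham and 34.0, 18.2 and 31.4 CPM in overload. Overload exceeded sham without overlap in both, with changes of 1.59 ± 0.36 (adjusted p = 0.00248) and 1.06 ± 0.38 (adjusted p = 0.0617).

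The other chromatin genes gave no call. Hells was at 0.46 ± 0.36 in control and 0.61 ± 0.40 in cdKO. Slbp, which binds the stem-loop of replication-dependent histone mRNAs, had estimates below 0 in both genotypes, -0.56 ± 0.36 (adjusted p = 0.266) and -0.74 ± 0.33 (adjusted p = 0.146). Its cdKO overload libraries (34.0, 39.0 and 18.0 CPM) all lay below its cdKO sham libraries (42.2, 52.1 and 56.1 CPM). Chaf1b, a subunit of the chromatin assembly factor CAF-1, had 1 and 17 counts in control, a ratio of 8.47 (1.33 to 354), and 1 and 12 in cdKO, a ratio of 10.5 (1.56 to 450). Chaf1a, the large CAF-1 subunit, had 0 and 8 counts in control and 1 and 4 in cdKO, too few for a fold, and its end overlaps Ubxn6.

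At the G1/S switch, E2f1 had 11.3, 4.10 and 0 CPM in control sham and 17.2, 33.8 and 33.9 CPM in control overload. In cdKO it had 11.0, 9.37 and 3.87 CPM in sham and 6.18, 16.9 and 16.8 CPM in overload, with replicate 1 among the sham values. The change was 2.39 ± 0.61 in control (adjusted p = 0.00625) and 0.70 ± 0.58 in cdKO (adjusted p = 0.469). Ccne1, the cyclin that drives entry into S phase with Cdk2, was at 1.16 ± 0.53 in control (adjusted p = 0.12) and -0.49 ± 0.52 in cdKO, with an interaction of -1.65 ± 0.75 (unadjusted p = 0.0368, adjusted p = 0.927). Ccne2 had 17 and 19 counts in control, a scaled ratio of 0.557 (0.274 to 1.14), and 9 and 21 in cdKO, a ratio of 2.05 (0.898 to 5.07). All its control overload libraries lay below all its control sham libraries, and its end overlaps Ints8.

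Counted by library order alone, 19 of the 27 tested members had every control overload library above every control sham library, where 18% of all tested genes did, and 0 the reverse, which 18.9% did. Pola1 was among them without passing the test, and Mcm3 passed without being among them. The 27 had all passed the same filter, which a gene high in a single group can pass. In cdKO 15 of the 27 lay wholly above sham, where 15.4% of all tested genes did, and 1, Slbp, wholly below, as 14.7% did. Among the 17 members under the filter, Gmnn, Gins2, Tyms and Chaf1b lay wholly above sham in control, and Pole and Ccne2 wholly below. In cdKO only Cdt1 of these lay wholly above, and none below. For these genes 1 count stood for 0.65 to 3.24 CPM, depending on the library. No share was computed for other genes under the filter, so these orders say nothing particular of the members.

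The 5 calls in cdKO depended on which libraries were kept. Without cdKO sham replicate 2 the count was 0, without cdKO overload replicate 3 it was 1 (Mcm4), without cdKO overload replicate 1 it was 2 (Mcm2 and Asf1b), and without cdKO overload replicate 2, the lowest of its group for the set, it was 9. In control cells the count ran from 14 to 22 over the same exercise. Calls over all genes also moved in both genotypes, over ranges given below, so these shifts cannot be read as particular to the members.

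Set directly against each other, overloaded cdKO and control cells differed in no tested member at an adjusted p under 0.05. Of the 27 tested members 25 were estimated lower and 2 higher (Pcna and Slbp), with a median of -0.99. Over all tested genes 53% were estimated higher in cdKO, and the median was 0.03. In edgeR 0 members passed, where 0.0368% of all tested genes did, and DESeq2 and limma voom also called 0 members. At an unadjusted p under 0.05, 18 members were lower and 0 higher, where 3.25% of all tested genes were lower and 3.73% higher. Some members, such as Uhrf1, entered the test through their counts in control overload, so this count is not independent of the filter. The smallest adjusted p was that of Asf1b, -1.89 ± 0.39 (adjusted p = 0.0948), followed by Lig1, -1.53 ± 0.38 (adjusted p = 0.294), and Rrm2, -1.69 ± 0.45 (adjusted p = 0.36). In 11 of the 27 every cdKO library lay below every control library after overload, where 5.31% of all tested genes did and 5.38% lay wholly above: Pola1, Rfc1, Rpa2, Rrm1, Tk1, Uhrf1, Dnmt1, Hells, Asf1b, Ccne1 and E2f1. No MCM gene was among these. With single libraries left out, calls over all genes moved too, over a range given below, so the next counts cannot be read as particular to the members. Without control overload replicate 1, 4 members passed as lower in cdKO (Mcm5, Asf1b, Rrm2 and Lig1). Without cdKO sham replicate 2, which enters only through the shared spread and the filter, 1 did (Asf1b). Without control overload replicates 2 and 3, 0 did.

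In sham muscle no member passed between the genotypes. The median over tested members was -0.10, against 0.01 over all tested genes, and 0 members passed in edgeR, where 0.0123% of all tested genes did. DESeq2 and limma voom also called 0 members. At an unadjusted p under 0.05 in edgeR, 1 member was higher in cdKO, Rfc1 (1.31 ± 0.39, adjusted p = 0.999), and 1 lower, Hells (-0.96 ± 0.41, adjusted p = 0.999), where 2.13% of all tested genes were higher and 1.96% lower. Rfc1 was also the only tested member wholly above control, and Mcm2, Mcm6 and Hells lay wholly below, where 5.44% and 4.45% of all tested genes did.

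**Figure D5:**
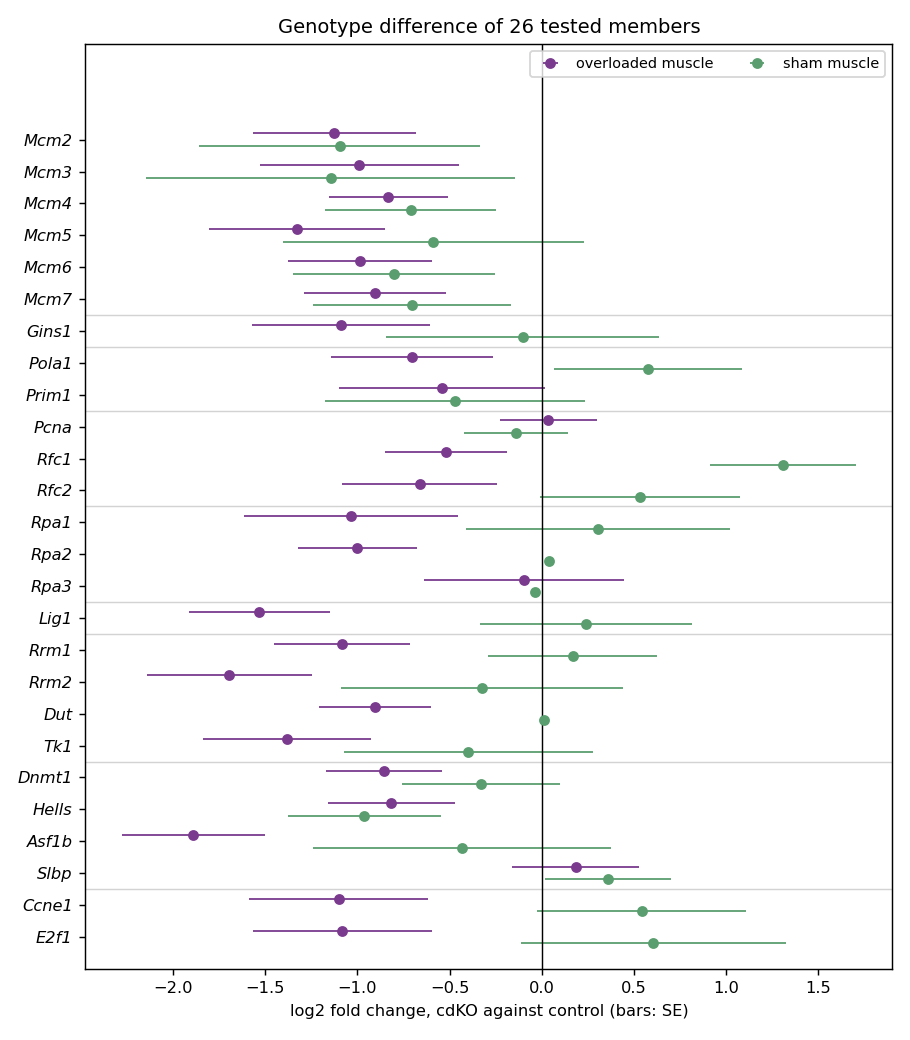
Log2 fold change of cdKO against control (horizontal axis, with SE) for 26 tested members in overloaded and in sham muscle, with lines between the roles; Uhrf1 is left out, and points without a bar are too close to 0 to give an SE. In overloaded muscle all points except Pcna and Slbp lie below 0, and in sham muscle they lie on both sides, with Rfc1 at 1.31.

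Further genes of the pathway gave the surroundings of the set. Of 45 other replication genes 25 were tested, and 6 rose and 0 fell in control, where 10.6% of all tested genes rose, with a median of 0.86. Orc6, an origin recognition subunit, was at 1.92 ± 0.40 (adjusted p = 0.00106), Pole3, an accessory subunit of polymerase epsilon, at 1.96 ± 0.44, Ssrp1, of the histone chaperone FACT, at 1.28 ± 0.33, and Atad5, which unloads the clamp, at 2.56 ± 0.73. In cdKO only 1 of the 25 rose, the primase subunit Prim2 (1.15 ± 0.39, adjusted p = 0.0496), a smaller share than the 6.37% of all tested genes, and the median was 0.20. Of 23 genes of S phase control 13 were tested, and 2 rose in control and 1 in cdKO, shares near the 10.6% and 6.37% of all tested genes, so these counts say nothing particular of the list. The calls in control were Usp1, a deubiquitinase that acts on the clamp (1.34 ± 0.34), and E2f3 (1.39 ± 0.40), and the call in cdKO was E2f4 (0.99 ± 0.29, adjusted p = 0.0258).

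Genes of the later phases of the cycle rose as well. Of 37 genes of G2 and M phase 18 were tested. In control 13 rose and 0 fell, where 10.6% of all tested genes rose and 11% fell. In cdKO 4 rose and 0 fell, where 6.37% of all tested genes rose and 6.68% fell. The medians of the G2 and M phase genes were 2.38 and 1.39, against 1.59 and 0.80 for the replication genes. Top2a, the topoisomerase that untangles sister chromatids, rose by 4.08 ± 0.48 in control and 1.99 ± 0.45 in cdKO on the log2 scale. Smc2, a condensin subunit, rose by 2.58 ± 0.40 and 1.87 ± 0.39, and Tacc3, a spindle protein, by 3.14 ± 0.55 and 2.32 ± 0.61. The spindle assembly factor Tpx2 rose in control (3.86 ± 0.54) and was at 1.61 ± 0.55 in cdKO (adjusted p = 0.0551). Between genotypes in overloaded muscle 0 of the 18 passed, where 0.0368% of all tested genes did, with a median of -1.30. In summed level the 6 overloaded libraries had the same order as for the replication genes, with control overload at 744, 1434 and 1202 CPM and cdKO overload at 664, 312 and 607 CPM.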

How the data were processed

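RNA was measured in 12 libraries. Per the labels' protocols, 1000 cells were sorted per tube and libraries followed a published low-input method. The authors deposited whole-number counts per gene, which were used unchanged. Per the submitters' processing notes, the tools included HISAT2 2.2.1 and featureCounts 2.0.1, Trim Galore 0.6.6 as well as DESeq2 1.26.0, with build GRCm38. Neither the strand setting nor molecular identifiers are stated in the sources used, so reads are not known to be independent molecules and intervals cover counting error only.

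Counts were tested in edgeR 4.0.16 (R 4.3.3) by a robust quasi-likelihood fit with filterByExpr, TMM scaling, a mean per group over all 12 libraries, and Benjamini-Hochberg adjustment over 8161 genes at 0.05, two-sided. Log2 fold changes used a prior count of 0.125, and SE is the absolute log2 fold change over the square root of F. The test was tried on simulated data. Between genotypes it found 16% of 2-fold and 79% of 4-fold changes in overloaded muscle, and 21% and 71% in sham muscle. For overload against sham it found 22% and 69% in control, and 31% and 86% in cdKO. The members and lists were chosen with earlier results of these data known. Members were named by role, with library values for the 16 of smallest p after overload in control for Pcna, Pola1 and Slbp in addition, chosen after their values were seen, and up to 4 called genes per other list. Alternatives were DESeq2 1.42.0, limma 3.58.1 voom, other scaling, no filter, a non-robust fit, thinned counts, a replicate block, fewer groups, a Y-linked covariate and libraries left out. Those leaving out control overload replicates 2 and 3, or control overload replicate 1 with cdKO overload replicate 2, were chosen after seeing the data. Libraries within a group were distinct (chi-square over its degrees of freedom, pair by pair, 3.22 to 19.2). Genes were placed on the GENCODE annotation of GRCm38, with 54100 of 54100 identifiers matched.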

Additional observations from a re-analysis of the deposited data

How the results depend on the processing

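No result reversed. In control overload, where 19 members rose, counts thinned to the smallest library gave 4 with only 11 members tested, a Y-linked covariate 8, leaving out replicate 2 of control overload together with replicate 3 of control sham 8, and leaving out control overload replicates 2 and 3 gave 2. Over all genes these settings called 783, 1033, 712 and 205 genes, against 1768. DESeq2 called 16 members and 1365 of all genes, limma voom 18 and 2301, and the groups compared alone 16 and 1722, with 3 of the 19 not tested. In cdKO overload, with 5, DESeq2 gave 3, limma voom 1, thinned counts 0, the groups compared alone 2, and leaving out control overload replicate 1 with cdKO overload replicate 2 gave 10. Under thinned counts and with the groups compared alone, 3 of the 5 genes (Asf1b, Mcm2 and Mcm3) were not tested. The Y-linked covariate gave 7. Over all genes DESeq2 called 816, limma voom 1171, thinned counts 423, the groups compared alone 1033, that pair left out 1583, the covariate 999 and no filter 702, against 1065. In the genotype comparison of overloaded muscle, with 0, no filter gave 2 (Asf1b and Rrm2) and leaving out control overload replicate 1 with cdKO overload replicate 2 gave 3 (Asf1b, Rrm2 and Lig1), with 17 and 21 of all genes called, against 3. Leaving out each library in turn gave 14 to 22, 0 to 9 and 0 to 4 members in these comparisons, and 0 in sham muscle and in the interaction. Over all genes the first 3 ranges were 1060 to 2508, 423 to 1287 and 1 to 34. In the interaction, with 0 of all genes, no filter called 10, DESeq2 1, leaving out single libraries 0 to 1, and leaving out either pair of libraries chosen after seeing the data called 4.

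The mean log2(CPM + 1) of the set rose by 1.32 in control and 0.700 in cdKO. With a pseudocount of 5 these became 0.925 and 0.440. The interaction of this mean was -0.615 and ran from -0.903 (without control overload replicate 1) to -0.433 (without control overload replicate 2). Replicate numbers gave no clear pairing of the libraries. The deviations of 18 same-numbered pairs had correlations of -0.202 to 0.313, with a median of 0.0407. Those of 36 differently numbered pairs ran from -0.341 to 0.321, with a median of -0.0224. Such overlapping ranges cannot decide whether the numbers mark pairs. With a replicate block 19 and 5 members rose and 0 passed in the other 3 comparisons, so the block changed no call. Another scaling moved the median of all genes by at most 0.0915. With 3 counts worth up to 9.72 CPM, the 17 members under the filter were measured too thinly for a test.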
